A study of Mus musculus with 17 samples.

Results

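The MAX network is a family of paired DNA-binding proteins, and 8 of its genes are described here in the mouse uterus after estradiol (E2): Myc, Mycn, Max, Mxd1, Mxd3, Mxd4, Mxi1 and Mnt. They were found as the probes of the deposited array table that the platform annotation gives one of these symbols, which yielded 13 probes among the 34885 probes with 1 symbol and 8 genes among 19057. The brightest probe stood for a gene. After E2 the level of Mxd4 fell 4.17-fold by 3 h and 5.02-fold by 6 h in wild-type (WT) uteri. On this brightest probe it had come most of the way back by 24 h. In WT Mxi1 and Mxd1 fell by smaller amounts at every time. On arrays labelled KO they fell by more than Mxd4 at 24 h (log2 -0.60 and -0.73 against -0.44). Myc rose slightly at 3 h and at 24 h. The second Mxd4 probe changed less in WT, by -0.47 at 3 h and -0.69 at 6 h, and the third did not pass there. At 24 h both lay above 0 h, the second by 0.08 in WT and 0.37 in KO and the third by 0.20 and 0.13. Of these, the second in KO and the third in WT passed. The dimmer Mxd1 and Myc probes passed at no time. The repressors Mxd3 and Mnt and the shared partner Max did not pass against 0 h at any time, and Mycn was too dim to be tested with the other genes.

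MAX is the common partner: MYC and MYCN bind DNA as pairs with MAX at the E-box and raise transcription, while MXD1, MXD3, MXD4, MXI1 and MNT pair with the same MAX protein and bring the SIN3 and histone deacetylase corepressors to the same kind of site. MYC is an immediate early gene in many cells that leave quiescence, and in the uterus estradiol is known to induce it before the epithelium enters the cell cycle. The MXD proteins are best known from cells that stop dividing and differentiate. The protein of MYC is short-lived, so mRNA levels, which are all that was measured here, do not give its amount.

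The uteri were labelled WT or KO for Egr1, an immediate early transcription factor gene that estradiol induces, and were taken 0, 3, 6 or 24 h after E2. WT at 3 h was measured on 3 arrays and each of the other 7 groups (WT at 0, 6 and 24 h, KO at 0, 3, 6 and 24 h) on 2, which makes 17 Illumina MouseWG-6 v2 bead arrays of total uterine RNA. The sources used here do not give the strain, age, ovariectomy, E2 dose, vehicle or form of the Egr1 allele, and every group after 0 h had E2. Whether the arrays of a group stand for separate mice is not labelled, and p-values then cover only the spread between these arrays, which may be technical.

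Array values were log2 intensities with the same distribution on every array, centred on a median of 8.20 with 75% of probes under 8.87, so every change is relative to what else an array measured. Of 8 uterine marker genes 7 passed the filter on dim probes and Hoxa10 did not, and of the ovary and oviduct markers Ovgp1 and Inha passed. Levels correlated at 0.990 to 0.997 between arrays of a group. The first WT 0 h array had cycling-cell markers at a mean log2 level of 9.55 against 8.85 on the other one. On the second KO 0 h array granulocyte markers were at 10.41 against 8.18 and macrophage markers at 11.06 against 10.28. The second KO 3 h array had adipocyte markers at 10.24 against 9.21, macrophage markers at 10.40 against 9.69 and stroma markers at 11.59 against 11.30. On the second KO 6 h array adipocyte markers were at 10.25 against 9.15. The probe for Egr1 passed as lower in KO at no time: its mean log2 level was higher than in WT by 1.18 at 0 h (adjusted p = 0.0030) and by 1.65 at 24 h (adjusted p = 1.47e-04). The differences of -0.15 at 3 h and 0.73 at 6 h did not pass (adjusted p = 0.695 and 0.0924). Its rise at 3 h was 2.42 in WT and 1.09 in KO, a difference of -1.33 (adjusted p = 0.0241). Where that probe lies relative to any deleted part is not known here, so directions between genotypes are directions between the labels.

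**Figure D1:**
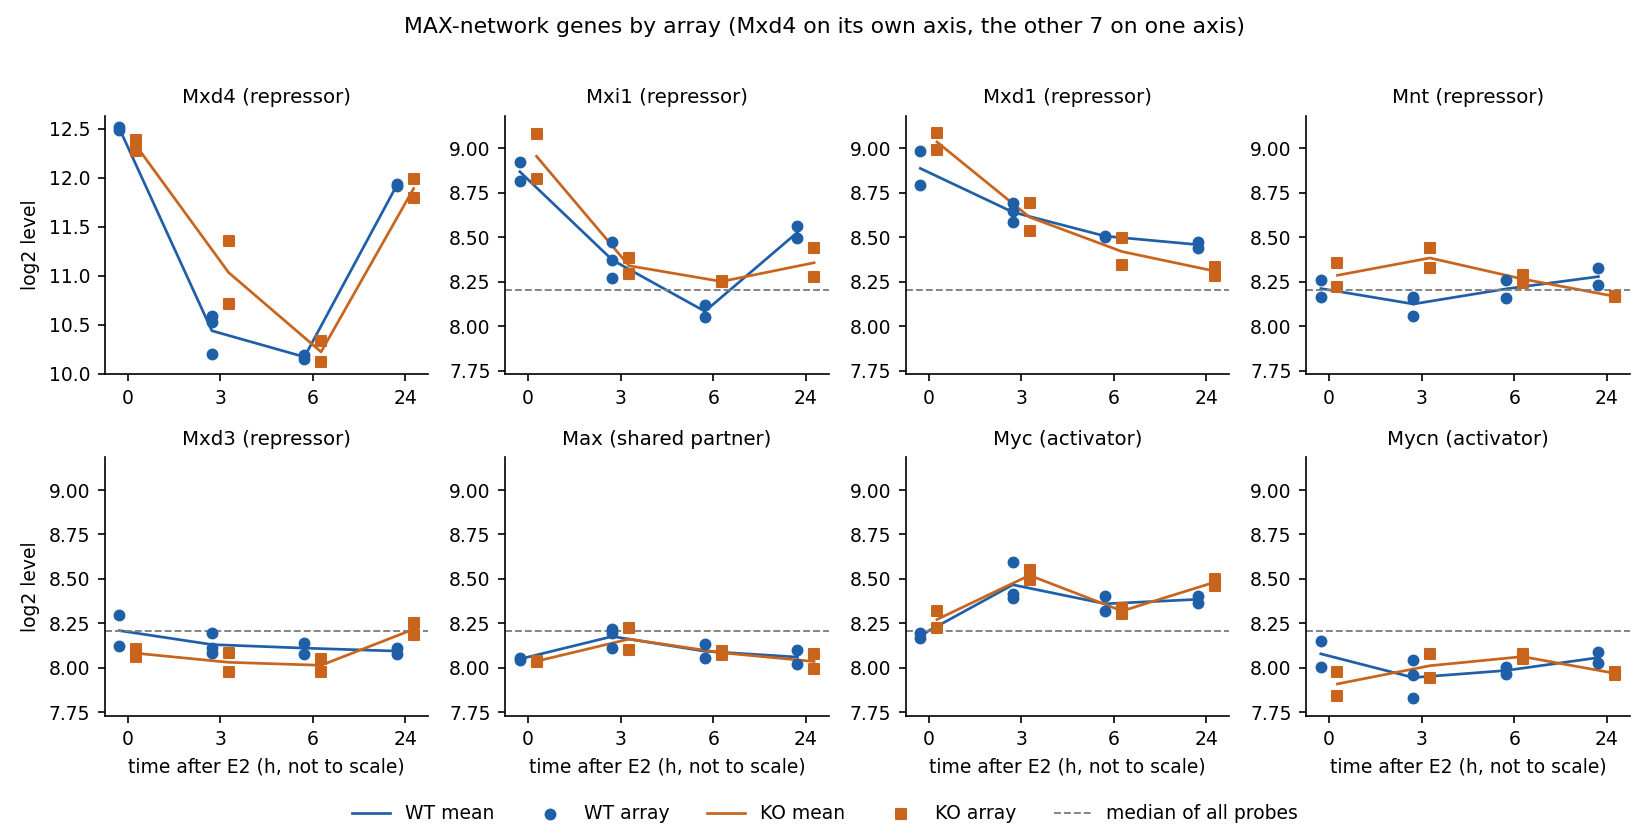
Log2 level of the brightest probe of each of the 8 genes on every array (circles WT, squares KO) against time after E2 in h, with lines through group means and a dashed line at the median of all probes. Mxd4 has an axis of its own and falls from about 12.50 to 10.17 in WT, while Max, Mxd3, Mnt and Mycn stay near the dashed line.

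Mxd4, a repressor first described in differentiating cells, was the member with the widest swing. At 0 h its log2 level was 12.49 and 12.51 in WT and 12.39 and 12.27 in KO. At 3 h it was 10.59, 10.53 and 10.20 in WT and 10.72 and 11.35 in KO. Every 3 h array lay far below every 0 h array, and the KO arrays at 3 h lay above the WT arrays, the second of them by a wide margin. At 6 h it was 10.15 and 10.19 in WT and 10.12 and 10.33 in KO, the lowest means of the series, and the genotypes overlapped. At 24 h it was 11.93 and 11.92 in WT and 11.79 and 11.99 in KO, still under every 0 h array.

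In WT Mxd4 changed from 0 h by -2.06 ± 0.15 (log2, SE) at 3 h, -2.33 ± 0.16 at 6 h and -0.58 ± 0.16 at 24 h, with limma adjusted p-values of 9.71e-08, 1.42e-07 and 0.0125. Among 14737 genes tested it was the 20th lowest at 3 h and the 25th lowest at 6 h. In KO it fell by 1.29 ± 0.16 at 3 h, 2.10 ± 0.16 at 6 h and 0.44 ± 0.16 at 24 h, with adjusted p-values of 2.34e-05, 2.86e-07 and 0.0412. From 6 to 24 h it rose again, by 1.75 in WT (adjusted p = 2.37e-06) and by 1.66 in KO (adjusted p = 3.75e-06). From 3 to 6 h it fell further by 0.81 in KO (adjusted p = 0.0029), while the WT step of -0.27 did not pass (adjusted p = 0.228). The calls at 24 h were the fragile ones: in WT they were lost without the second WT 0 h array (-0.57, adjusted p = 0.0624) or without the first (-0.58, adjusted p = 0.0565) or second (-0.57, adjusted p = 0.0592) WT 24 h array. In KO at 24 h the adjusted p ran from 0.0055 to 0.224 over the 17 fits that each left out an array, and 9 of them lost the call.

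The brightest Mxd4 probe carries no transcript accession in the annotation, only the gene number, and the other Mxd4 probes moved less. The second probe, with a mean log2 level of 8.69, fell by 0.47 at 3 h and 0.69 at 6 h in WT and by 0.51 at 6 h in KO. Its KO change of -0.19 at 3 h did not pass (adjusted p = 0.0798). At 24 h it was 0.37 higher in KO (adjusted p = 0.0019) and 0.08 higher in WT, which did not pass (adjusted p = 0.538). The third probe, with a mean of 8.31, differed from 0 h by 0.01 at 3 h and -0.14 at 6 h in WT, neither of which passed, was 0.20 higher at 24 h in WT (adjusted p = 0.0137) and fell by 0.16 at 6 h in KO (adjusted p = 0.0341). So the dip at 6 h is in the first and second probes of both genotypes, and the deficit at 24 h is in the first alone.

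**Figure D2:**
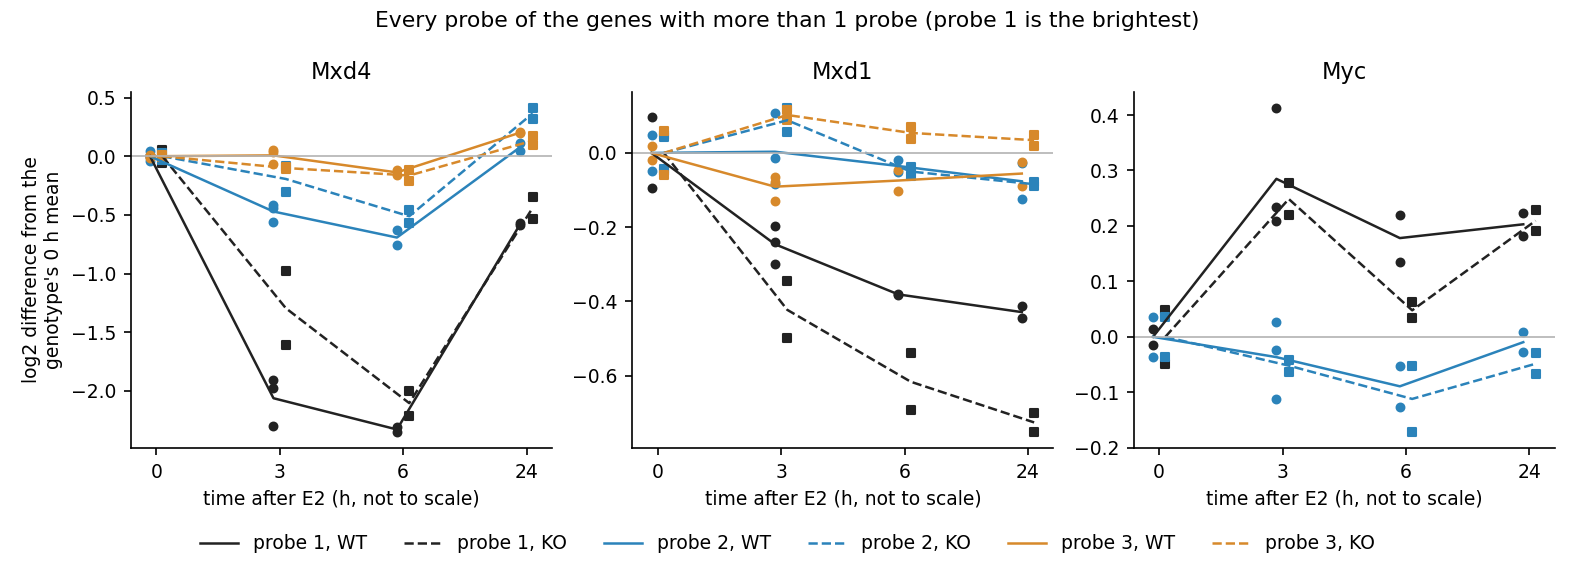
Difference of every probe of Mxd4 (3 probes), Mxd1 (3) and Myc (2) from its genotype's 0 h mean on the log2 scale, against time after E2 in h (circles and solid lines WT, squares and dashed lines KO, 1 colour per probe). In each gene the brightest probe moves most, by up to -2.33 for Mxd4, and the second Mxd4 probe falls with it at 6 h but lies above 0 at 24 h.

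Mxi1, a repressor that antagonises MYC and is known as a tumour suppressor candidate, had 1 probe. Its log2 level at 0 h was 8.82 and 8.92 in WT and 9.08 and 8.83 in KO. At 3 h it was 8.47, 8.37 and 8.27 in WT and 8.39 and 8.29 in KO, and at 6 h it was 8.12 and 8.05 in WT and 8.25 and 8.25 in KO. No array at 3 or 6 h reached the lowest 0 h array. At 24 h it was 8.49 and 8.56 in WT and 8.44 and 8.28 in KO, so both WT arrays had moved back up and the KO arrays lay just above their 6 h values.

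In WT Mxi1 fell by 0.50 ± 0.08 at 3 h, 0.79 ± 0.09 at 6 h and 0.34 ± 0.09 at 24 h (adjusted p = 1.57e-04, 7.15e-06 and 0.0076). In KO it fell by 0.62, 0.70 and 0.60, each ± 0.09 (adjusted p = 7.45e-05, 1.64e-05 and 7.18e-05). The WT step from 6 to 24 h was a rise of 0.44 (adjusted p = 0.0012), and in KO the same step was 0.11 and did not pass (adjusted p = 0.411). The difference between the genotypes' changes at 24 h was -0.26, with a 95% interval of -0.53 to 0.01 (adjusted p = 0.249). Leaving out the second WT 0 h array ended the WT call at 24 h (-0.29, adjusted p = 0.0709), as did leaving out the first WT 24 h array (-0.31, adjusted p = 0.0619).

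Mxd1, which takes over MAX from MYC as cells differentiate, fell and did not come back within 24 h. Its log2 level was 8.79 and 8.98 at 0 h in WT and 9.08 and 8.99 in KO. At 3 h the WT arrays gave 8.69, 8.65 and 8.59 and the KO arrays 8.54 and 8.69. At 6 h the values were 8.50 and 8.51 in WT and 8.34 and 8.50 in KO, and at 24 h 8.44 and 8.47 in WT and 8.33 and 8.28 in KO. Within each genotype the group means followed time, and the lowest 0 h array lay above every array taken after E2.

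The falls of Mxd1 in WT were 0.25 ± 0.07, 0.38 ± 0.08 and 0.43 ± 0.08 at 3, 6 and 24 h (adjusted p = 0.0102, 9.98e-04 and 6.16e-04). In KO they were 0.42, 0.62 and 0.73, each ± 0.08 (adjusted p = 5.03e-04, 1.50e-05 and 4.20e-06). The larger KO falls did not pass the test of the difference: at 24 h it was -0.30 with a 95% interval of -0.53 to -0.06 and an adjusted p of 0.119, and without the second WT 0 h array it was -0.39 (adjusted p = 0.0288). The WT fall at 3 h was lost without that array (-0.15, adjusted p = 0.157) and turned to 0.13 when arrays were scaled to reference genes (adjusted p = 0.465). The other Mxd1 probes, with mean log2 levels of 8.09 and 7.97, lay below the array median on average and passed at no time, with changes between -0.09 and 0.10.

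Over the 17 arrays Mxi1 correlated with Mxd4 at r = 0.82 and with Mxd1 at r = 0.79, whereas Mxd4 and Mxd1 correlated at 0.47, a smaller size than Mxd4 with Max (-0.51) or Mxd1 with Myc (-0.52). These are descriptions of arrays that share groups and normalization, with no test. The start regions of the 3 genes are shown because their mRNAs were all lower after E2. The RefSeq table used here holds promoters of 7 of the 8 genes (all but Myc), 9 in all on build GRCm38.p6, each running from 250 bases before to 50 bases after a transcript start. Below are the 250 bases before the start, in lower case with any E-box (CACGTG, read on both strands) in capitals, for Mxd4 at chr5:34187711-34187960 on the minus strand, Mxd1 at chr6:86669160-86669409 on the minus strand and the first of 3 Mxi1 starts at chr19:53310256-53310505 on the plus strand:
Mxd4: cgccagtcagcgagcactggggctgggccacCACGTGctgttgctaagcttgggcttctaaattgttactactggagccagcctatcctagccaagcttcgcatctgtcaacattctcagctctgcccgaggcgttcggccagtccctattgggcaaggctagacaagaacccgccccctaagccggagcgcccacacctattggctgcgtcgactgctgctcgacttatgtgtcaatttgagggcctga
Mxd1: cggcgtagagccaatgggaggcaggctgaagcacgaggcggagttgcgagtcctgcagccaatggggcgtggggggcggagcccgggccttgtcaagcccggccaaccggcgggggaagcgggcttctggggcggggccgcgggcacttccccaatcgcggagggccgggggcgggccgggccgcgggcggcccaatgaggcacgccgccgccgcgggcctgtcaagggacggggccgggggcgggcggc
Mxi1: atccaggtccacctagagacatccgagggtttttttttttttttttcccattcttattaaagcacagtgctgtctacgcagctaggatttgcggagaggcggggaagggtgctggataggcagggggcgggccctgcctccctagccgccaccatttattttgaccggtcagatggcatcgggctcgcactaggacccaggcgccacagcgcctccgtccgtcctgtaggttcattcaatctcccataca

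Among the 300-base windows, the E-box was found in those of Mxd4, Max and Mnt, beginning at -219, -3 and -123 from the start, and in those of none of the other 4 genes with an entry. It is in 7.15% of 32851 such windows, so it was present in 1 of the 3 genes that fell and in 2 that did not pass against 0 h at any time. The forkhead-factor word GTAAACA, present in 3.65% of windows, was found in the window of another Mxi1 start, beginning at -231 within the stretch gcgcggagaaGTAAACAaaccgcgcgc, where the capitals mark it. None of the 9 windows held the palindromic estrogen response element (0.07% of all windows), the EGR1 word GCGTGGGCG (0.612%) or the AP-1 word TGACTCA (5.2%), all read on both strands. A match of letters is not a site, and a missing one speaks only for these windows.

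**Figure D3:**
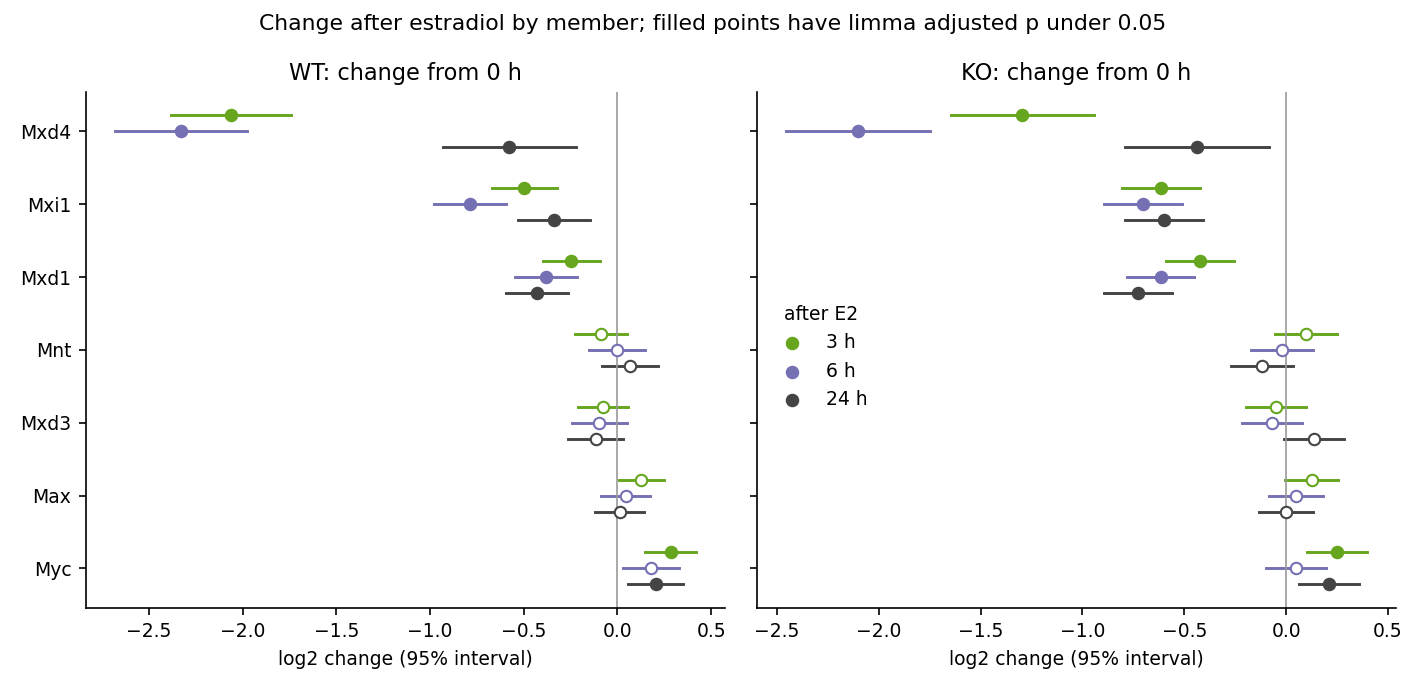
Log2 change from 0 h at 3, 6 and 24 h after E2, with 95% intervals, for the 7 tested genes in WT (left) and KO (right). Filled points passed at an adjusted p under 0.05: Mxd4, Mxi1 and Mxd1 lie left of 0 at every time and Myc lies right of 0 at 3 and 24 h, except that with arrays scaled to reference genes Mxd1 at 3 h in WT and Myc at 24 h change side.

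Mnt, a broadly expressed repressor that buffers MYC, stayed close to the array median. Its log2 level at 3 h was 8.16, 8.15 and 8.06 in WT and 8.33 and 8.44 in KO, which do not overlap, against 8.16 and 8.26 in WT and 8.35 and 8.22 in KO at 0 h. Over the other times it ran from 8.16 to 8.32. Its largest change from 0 h was -0.12 in KO at 24 h, with a 95% interval of -0.27 to 0.03 (adjusted p = 0.199). Mxd3, a repressor known from proliferating cells in S phase, gave 8.29 and 8.12 at 0 h in WT, 8.06 and 8.11 at 0 h in KO, and between 7.98 and 8.25 afterwards. Its changes from 0 h ran from -0.12 in WT at 24 h (95% interval -0.26 to 0.03) to 0.13 in KO at 24 h (95% interval -0.01 to 0.28), and neither passed. It rose by 0.20 from 6 to 24 h in KO (adjusted p = 0.0297), a call that ended when the second KO 6 h array (0.17, adjusted p = 0.168) or one of the KO 24 h arrays was left out (0.17 and 0.24, adjusted p = 0.173 and 0.0563). The probes of Max and Mxd3 each exceeded the array median on only 2 of 17 arrays, so a change in either could be compressed by background. For Mxd3 these were the first WT 0 h array (8.29) and the first KO 24 h array (8.25). It was thus kept by the filter through an array of the group then called higher, and that call lends no support of its own.

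Myc itself changed little on this platform. Its log2 level was 8.17 and 8.20 at 0 h in WT and 8.32 and 8.22 in KO. At 3 h it was 8.42, 8.39 and 8.59 in WT and 8.55 and 8.49 in KO, all above every 0 h array. At 6 h it was 8.32 and 8.40 in WT and 8.33 and 8.31 in KO, and at 24 h 8.41 and 8.36 in WT and 8.50 and 8.46 in KO. Within each genotype the 24 h arrays lay above the 0 h arrays, and in KO the 6 h arrays overlapped them.

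The rise of Myc at 3 h was 0.28 ± 0.06 in WT and 0.25 ± 0.07 in KO (adjusted p = 0.0018 and 0.0098), which is 1.22-fold and 1.19-fold. At 6 h it stood 0.18 above 0 h in WT (adjusted p = 0.0503) and 0.05 in KO (adjusted p = 0.642), and neither passed. At 24 h it was 0.20 higher in WT and 0.21 higher in KO (adjusted p = 0.0316 and 0.0223), but these turned to -0.76 and -0.98 when arrays were scaled to reference genes. The WT call at 24 h was lost without any 1 of the 4 arrays it compares, with adjusted p-values from 0.0786 to 0.157. In KO, leaving out the second 0 h array ended the calls at 24 h and at 3 h (0.16 and 0.20, adjusted p = 0.172 and 0.0968). The 24 h call also ended without one or the other KO 24 h array (0.19 and 0.23, adjusted p = 0.113 and 0.0587), and the 3 h call when the first KO 3 h array was left out (0.22, adjusted p = 0.0672). The other Myc probe lay above the array median on 0 of 17 arrays and passed at no time, with changes from -0.11 to -0.01.

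Mycn, the MYC family member best known from developing tissues, had 1 probe, which was above the array median on 0 of 17 arrays and ran from 7.83 to 8.15. In a fit of all 19057 genes without the filter its changes from 0 h ran from -0.13 to 0.15, and none passed, the lowest adjusted p being 0.157. Max lay at or under 8.22 on every array. Its mean rose from 8.05 at 0 h to 8.18 at 3 h in WT, a difference of 0.13 (adjusted p = 0.0770), and from 8.04 to 8.16 in KO, a difference of 0.12 (adjusted p = 0.126). By 24 h the difference from 0 h was 0.01 in WT, with a 95% interval of -0.12 to 0.14, and the interval in KO was -0.13 to 0.13.

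Counted by role, 3 of the 5 repressors passed as lower and 0 as higher in each of the 6 comparisons with 0 h, and the activator Myc passed as higher in 4 of them. The background was high, since much of what the arrays measured differed from 0 h. Every group after 0 h had E2, so E2 and time cannot be told apart as the cause. In WT 24.5% of all genes were lower at 3 h, 22.1% at 6 h and 19.0% at 24 h, and in KO 21.4%, 23.0% and 23.1%. In WT 22.2% were higher at 3 h, 21.9% at 6 h and 18.9% at 24 h, and in KO 19.0%, 21.8% and 22.5%. The median change of all genes was within 0.01 of 0 in each, while the median over the 5 repressors was -0.25 at 3 h and -0.38 at 6 h in WT.

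Means were also taken over the 2 activators, of which Mycn was untested, and over the 5 repressors, of which Mxd3 and Mnt did not pass against 0 h. The mean difference from 0 h over Myc and Mycn was 0.08 ± 0.11 (SD, n = 3) in WT at 3 h and 0.18 ± 0.07 (SD, n = 2) in KO, against -0.59 ± 0.08 and -0.46 ± 0.13 over the 5 repressors. At 6 h the repressor means were -0.72 in WT and -0.70 in KO and the activator means 0.04 and 0.10. At 24 h the gap had narrowed, with repressors at -0.28 and -0.35 and activators at 0.09 and 0.13. Mxd4 made up most of the dip: without it the repressor mean in WT was -0.23 at 3 h, -0.32 at 6 h and -0.20 at 24 h, and in KO -0.25, -0.35 and -0.33. The members were chosen with results known, so these means are descriptions without a test.

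**Figure D4:**
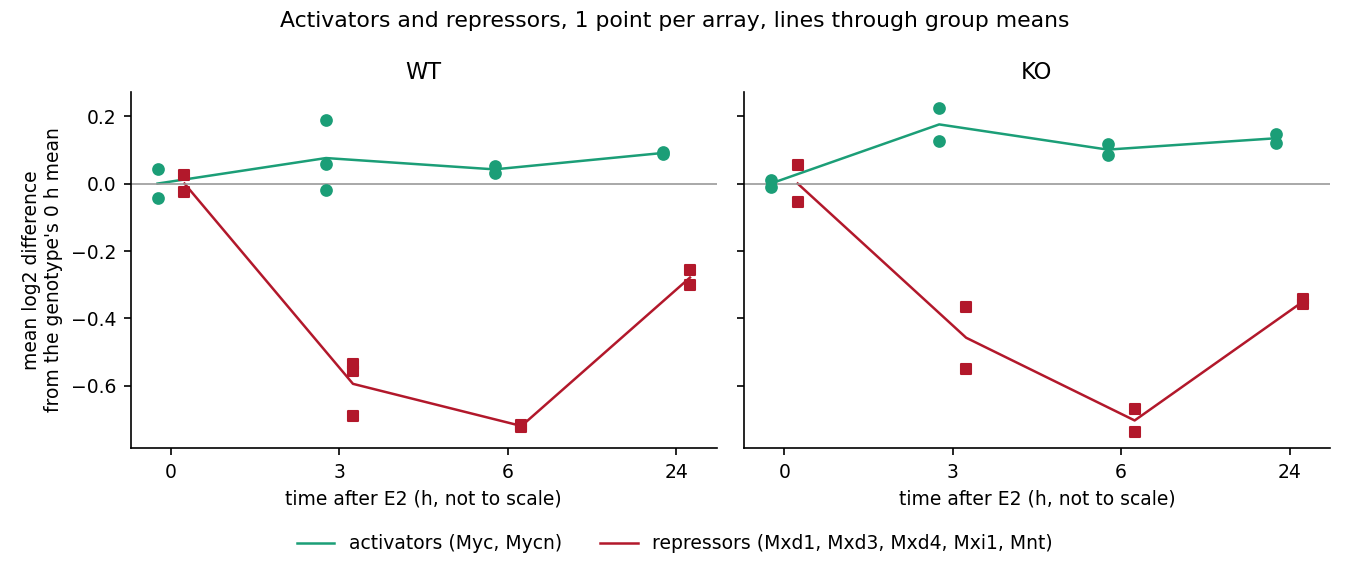
Mean log2 difference from the genotype's own 0 h mean over the activators (circles) and the repressors (squares), 1 point per array, against time after E2 in h. The repressor mean reaches -0.72 in WT and -0.70 in KO at 6 h and single arrays of the activator mean lie between -0.0438 and 0.22.

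Markers of other cell types moved over the same times, in differing directions. Epithelium markers were higher at 24 h, 7 of 7 in WT and 4 in KO with 1 lower. So were cycling-cell markers, 8 of 10 in WT and 9 in KO. Endothelium markers were lower at each time in both genotypes, 3 of 5. Of all genes 18.9% to 22.5% passed as higher and 19.0% to 24.5% as lower. The stroma and adipocyte lists are given in full. The mean log2 level of 6 stroma markers was 12.76 and 12.15 in WT and 11.89 and 12.10 in KO at 0 h, ran from 11.06 to 11.59 at 3 and 6 h and from 12.29 to 12.70 at 24 h. Their mean was low when Mxd4 was low. At 24 h that mean lay above both KO 0 h arrays and 1 of the WT 0 h arrays, whereas Mxd4 was still under every 0 h array. All 6 passed as lower in WT at 3 h and 6 h and 4 of 6 in KO. At 24 h the 6 markers were split, with 2 higher and 2 lower than at 0 h in WT and 3 higher and 2 lower in KO. The mean of 4 adipocyte markers was 10.55 to 11.25 at 0 h and 8.96 to 10.25 later, and stayed down at 24 h as Mxd1 did, with 4, 3 and 3 markers lower in WT and 4, 4 and 4 in KO at 3, 6 and 24 h. Of these markers Fabp4 exceeded the array median on 3 arrays, all at 0 h, and Plin1 on 4. The filter kept Fabp4 through 0 h arrays alone, so calls of lower for these dim probes were favoured by the filter and are weak. In whole tissue, fewer cells of a type and less RNA per cell cannot be told apart, and the part of these cell types in the falls of Mxd4, Mxi1 and Mxd1 was not tested.

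**Figure D5:**
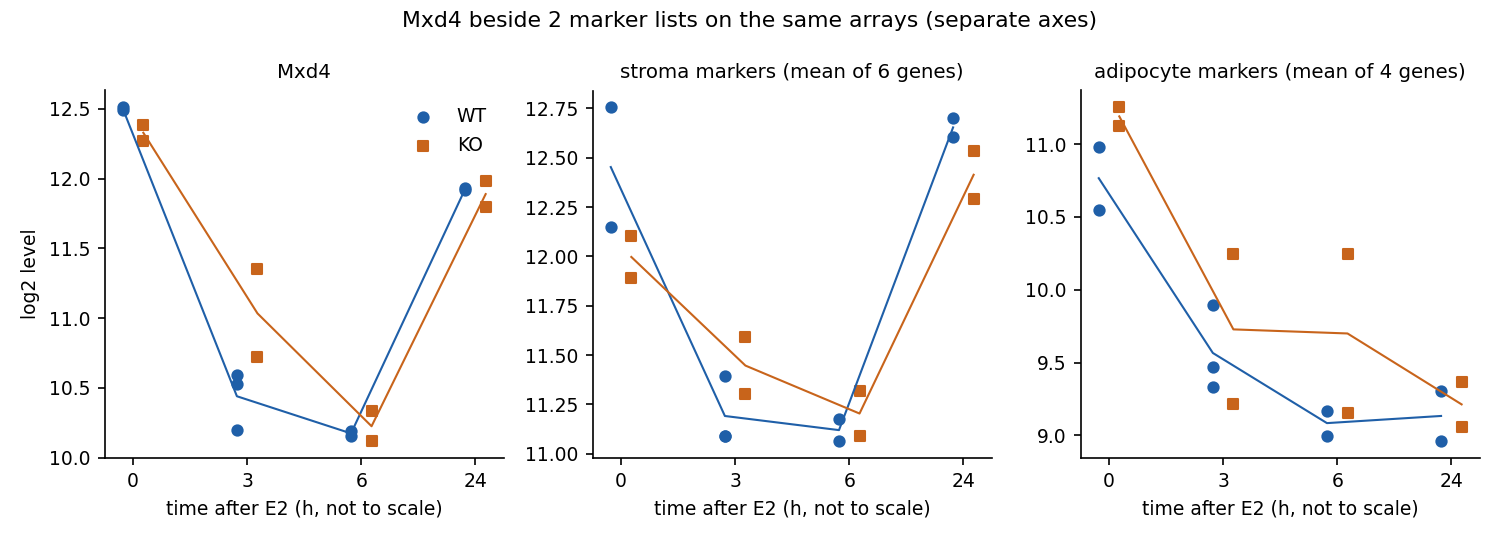
Log2 level of Mxd4 (left) beside the mean of 6 stroma markers (middle) and of 4 adipocyte markers (right) on every array, against time after E2 in h (circles WT, squares KO, lines through group means). Mxd4 and the stroma markers are both low at 3 and 6 h and higher at 24 h, when Mxd4 is still under its 0 h level, and the adipocyte markers stay below their 0 h level.

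Of the steps between times, 1 member passed as lower from 3 to 6 h in each genotype, Mxi1 in WT (-0.29, adjusted p = 0.0177) and Mxd4 in KO, where 12.7% and 11.7% of all genes did. From 6 to 24 h Mxd4 and Mxi1 passed as higher in WT and Mxd4 and Mxd3 in KO, where 19.3% and 19.7% of all genes did. The filter on dim probes kept Mxd3 only through the first WT 0 h array and the first KO 24 h array, which favoured its call.

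Between the genotypes, 2 of the 7 tested members passed at 3 h and 0 at 0, 6 or 24 h, where the share of all genes that passed was 4.23% at 3 h and 4.43%, 0.631% and 8.35% at the other times. Arrays of the genotypes did not overlap at 3 h for 32.7% of all genes. At an unadjusted p under 0.05, 0 further tested members passed at any of the 4 times. At 3 h Mxd4 was 0.59 higher in KO than in WT (95% interval 0.27 to 0.92, adjusted p = 0.0419) and Mnt 0.26 higher (95% interval 0.12 to 0.40, adjusted p = 0.0376). Both rest on few arrays: without the second KO 3 h array Mxd4 differed by 0.28 and Mnt by 0.20. That array had more adipocyte, macrophage and stroma marker signal than the first, and the part of these was not tested. Of the 17 fits that each left out an array, 11 lost the call for Mxd4 and 8 the call for Mnt. The Mxd4 call at 3 h was also that of its brightest probe alone. The Mxd4 probe with a mean log2 level of 8.69 was 0.17 higher in KO (limma adjusted p = 0.254). The probe with a mean of 8.31 differed by -0.02 (limma adjusted p = 0.921), and neither passed. Myc differed between the genotypes by 0.09 at 0 h (95% interval -0.06 to 0.24), 0.05 at 3 h (-0.08 to 0.19), -0.04 at 6 h (-0.19 to 0.11) and 0.10 at 24 h (-0.05 to 0.24).

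The change after E2 did not pass as different between genotypes for any member, where 1.09%, 0.400% and 7.27% of all genes passed at 3, 6 and 24 h and 6.83% in the joint test. At an unadjusted p under 0.05 the difference passed for Mxd4 at 3 h and for Mxd1 and Mxd3 at 24 h. For Mxd4 at 3 h the KO fall was smaller by 0.77 (95% interval 0.29 to 1.24, adjusted p = 0.122). That difference came to 1.08 with an adjusted p of 0.0094 without the first KO 3 h array. On the dimmer Mxd4 probes, with mean log2 levels of 8.69 and 8.31, the difference at 3 h was 0.28 and -0.11. Neither passed (limma adjusted p = 0.283 and 0.609). Over all times together the adjusted p was 0.117 for Mxd4, 0.102 for Mnt and 0.710 for Myc.

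The order of the 8 group means is given as a description. For Mxd4 it ran from WT 0 h (12.50) through KO 0 h (12.33), WT 24 h (11.93), KO 24 h (11.89), KO 3 h (11.03), WT 3 h (10.44) and KO 6 h (10.22) to WT 6 h (10.17), with overlapping arrays between WT 24 h and KO 24 h, between WT 3 h and KO 6 h, and between KO 6 h and WT 6 h. For Myc it ran from KO 3 h (8.52) through KO 24 h (8.48), WT 3 h (8.47), WT 24 h (8.39), WT 6 h (8.36), KO 6 h (8.32) and KO 0 h (8.27) to WT 0 h (8.18), and arrays of neighbouring groups overlapped except in the last pair. Separated arrays are no test: WT 0 h and KO 0 h did not overlap for Mxd4 or Myc and did not pass (adjusted p = 0.659 and 0.560), and 44.5% of all genes did not overlap there.

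Beyond the 8 members, Mlxipl and Mycl had the largest changes of the other network genes. Mlxipl, which encodes the glucose-responsive factor ChREBP that pairs with MLX, was 1.33 and 0.78 higher at 3 and 6 h in WT and 1.23 and 0.74 higher in KO. Its KO value at 6 h was 0.43 without the second KO 6 h array. At 24 h it was lower in WT and KO (-0.56 and -0.63). Mycl, the remaining MYC family gene, was 0.43 higher in WT and 1.35 higher in KO at 3 h. From 0 h it started 0.66 lower in KO (log2 difference -0.66), and in WT it then stood at -0.43 at 6 h and -0.46 at 24 h. Mlx, the partner of ChREBP and MondoA, was 0.37 and 0.33 higher at 6 h and 0.31 and 0.37 higher at 24 h in WT and KO, the latter turning to -0.66 and -0.82 on the reference-gene scale. Mlxip (MondoA) was 0.26 higher at 3 h and lower at 24 h in WT (-0.20), and lower at 24 h in KO (-0.43). Mga, a large MAX partner, passed in KO at 24 h (-0.24) and at no other time. The WT calls at 24 h hung on single arrays: without the second WT 24 h array Mlxipl was at -0.53, Mycl at -0.40 and Mlx at 0.29 (adjusted p = 0.0773, 0.0715 and 0.0573), and without the first Mlxip was at -0.16 (adjusted p = 0.152). Leaving out the second KO 0 h array ended the call of Mga (-0.21, adjusted p = 0.0808), and so did leaving out the first KO 24 h array (-0.22, adjusted p = 0.0688). The lower start of Mycl in KO did not pass without the first WT 0 h array (-0.61, adjusted p = 0.0641) and its WT value at 6 h did not either (-0.39, adjusted p = 0.0547). Of these 5 genes 3, 2 and 1 were higher and 0, 1 and 3 lower at 3, 6 and 24 h in WT, and 2, 2 and 1 higher and 0, 0 and 3 lower in KO. Among all genes 18.9% to 22.5% were higher and 19.0% to 24.5% lower in these comparisons. Scaled to reference genes, 5, 1 and 0 were higher and 0, 1 and 5 lower in WT, and 2, 1 and 0 higher and 0, 0 and 5 lower in KO.

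Of the genes for MYC coactivators and the MYC partner MIZ1, 9 were measured, and most that passed at 3 and 6 h were higher. In WT 6, 6 and 4 were higher and 0, 0 and 2 lower at 3, 6 and 24 h. In KO 5, 6 and 5 were higher and 0, 1 and 3 lower. The share of all genes was 18.9% to 22.5% higher and 19.0% to 24.5% lower. Medians were 0.29, 0.40 and 0.24 in WT and 0.24, 0.53 and 0.33 in KO. On the reference-gene scale 8, 1 and 0 were higher and 0, 0 and 9 lower in WT, and 3, 1 and 0 higher and 0, 1 and 7 lower in KO. Wdr5, a histone-methylation adaptor that holds MYC on chromatin, was 0.80 and 0.75 higher at 3 and 6 h in WT, and Kat2a, a histone acetyltransferase, 0.79 and 0.52. The helicase gene Ruvbl2 was 0.58 and 0.61 higher at 6 and 24 h in WT and 0.87 and 1.29 in KO, with WT values of 0.35 and 0.38 without the second WT 0 h array. The WT value at 24 h turned to -0.36 on the reference-gene scale. The lower members, named after their values were seen, were Ep400 and Zbtb17 at 24 h in both genotypes (-0.22 and -0.25 in WT, -0.21 and -0.24 in KO) and Trrap in KO at 6 and 24 h (-0.40 and -0.23).

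The genes for corepressors that MXD proteins recruit and those of MYC protein turnover passed in both directions, most counts being near the share of all genes. That share was 18.9% to 22.5% higher and 19.0% to 24.5% lower over the 6 comparisons with 0 h. Of 7 measured, 1, 1 and 1 were higher and 1, 2 and 2 lower at 3, 6 and 24 h in WT, and 1, 2 and 4 higher and 1, 2 and 1 lower in KO. Scaled to reference genes the counts were 5, 1 and 0 higher and 0, 2 and 6 lower in WT, and 2, 1 and 0 higher and 0, 2 and 5 lower in KO. Sin3a, the scaffold that binds the MXD proteins directly, was lower in WT at 3, 6 and 24 h (-0.68, -0.82 and -0.37) and in KO at 3 and 6 h (-0.38 and -0.74). Its KO value at 3 h was -0.20 without the first KO 3 h array (adjusted p = 0.0667). Its paralogue Sin3b was lower at 24 h, at -0.75 in WT and -0.94 in KO. Rbbp7, a histone-binding subunit of the same complex, was 0.66, 0.80 and 0.79 higher in WT, its 24 h value turning to -0.18 on the reference-gene scale. Of genes of MYC protein turnover, 2, 2 and 1 of 9 were higher and 3, 1 and 2 lower in WT, and 0, 2 and 2 higher and 3, 3 and 2 lower in KO. With reference-gene scaling 6, 0 and 0 were higher and 0, 1 and 9 lower in WT, and 0 higher and 0, 3 and 9 lower in KO. Fbxw7, the ubiquitin ligase subunit that marks MYC for degradation, was 0.46 and 0.52 higher at 3 and 6 h in WT. Gsk3b, the kinase that primes that step, was lower at 3 h in both genotypes (-0.43 each). Usp28, a deubiquitinase that opposes it, was lower at 3 h in WT (-0.33).

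Most genes widely described as induced by MYC rose at 3 and 6 h. Of 24 measured, 18, 23 and 19 were higher and 0 lower at 3, 6 and 24 h in WT, with medians of 0.61, 0.87 and 0.51, and 18, 22 and 22 higher and 0 lower in KO, with medians of 0.56, 0.89 and 1.10. Of all genes 18.9% to 22.5% were higher in these comparisons. Srm, for spermidine synthase, was 1.35, 1.91 and 1.08 higher in WT. The nucleolar genes Nop58 and Nop56 were 1.57 and 1.21 higher at 3 h in WT, and Tfrc, the transferrin receptor gene, was 1.64 higher at 6 h in WT. On the reference-gene scale 15 of the 24 passed as lower and 1 as higher at 24 h in WT, and 10 and 5 in KO, where the median of all genes was -0.96 and -1.19. Between the genotypes 8 of the 24 were higher in KO at 24 h, among them Srm (0.73), Pa2g4 (0.64), Nop58 (0.57) and Ncl (0.51), while 4.08% of all genes were higher. These 4 calls ended when the second WT 24 h array was left out (adjusted p = 0.187, 0.0917, 0.262 and 0.169), and also when one or the other KO 24 h array was. Many regulators act on these genes, and what moved them was not tested.

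Of genes widely described as repressed by MYC, 8 were measured. As deposited, 3 were higher at each time in WT and 3, 4 and 4 lower, and in KO 2, 2 and 0 were higher and 3, 4 and 4 lower. All genes together gave 18.9% to 22.5% higher and 19.0% to 24.5% lower. By reference genes 4, 2 and 0 were higher and 1, 4 and 8 lower in WT, and 2, 2 and 0 higher and 2, 4 and 8 lower in KO. Cdkn1a, the cell-cycle inhibitor p21, was 2.15 and 2.11 higher at 3 and 6 h in WT and 2.07 and 2.01 in KO, and Gadd45a, a stress-response gene, 1.99 and 2.13 higher at 3 h in WT and KO. Ndrg2, a stress and differentiation gene, was lower by 6 h (-1.63 in WT and -1.99 in KO), and Cdkn1c, the inhibitor p57, by 24 h (-1.57 and -1.97). Of the MondoA and MLX targets, Txnip, an inhibitor of thioredoxin and glucose uptake, was lower at 3, 6 and 24 h in WT (-2.16, -1.52 and -2.10) and in KO (-1.42, -1.73 and -2.73), and Arrdc4 was 1.08 and 1.34 higher at 6 h in WT and KO. At 3 h both were higher in KO than in WT, Txnip by 0.99 and Arrdc4 by 0.52, but without the second KO 3 h array the values were 0.73 and 0.41 and did not pass (adjusted p = 0.199 and 0.174).

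The genes whose levels were most like each member's over the 17 arrays were picked as the 3 with the highest Pearson correlation among all genes tested, and these values are descriptions without a test, since the arrays share groups and scaling. For Mxd4 they were Dbp, the circadian output factor (r = 0.99), Sspn (0.98) and Fbxo25 (0.98). Dbp went from a mean log2 level of 13.71 at 0 h to 10.18 at 6 h and 12.90 at 24 h in WT. For Mxi1 they were Man2a2, Cyp2j9 and Ccdc80 (0.97, 0.97 and 0.96), and for Mxd1 Lysmd1, Crbn and Lag3 (0.98, 0.97 and 0.97). For Myc they were Prps1l3, Tfam, the mitochondrial transcription factor, and Ppp1cc (0.87, 0.85 and 0.85). For Max they were Ppp1r37, Kcns3 and Brms1 (0.91, 0.90 and 0.88), and for the dim probes of Mxd3 and Mnt the closest genes were Ybx2 (0.81) and Pax8 (0.80).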

How the data were processed

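Total uterine RNA was measured on 17 Illumina bead arrays, and the deposited table holds log2 values of 45281 probes that share 1 distribution on every array. Per the submitters' processing notes BeadStudio was used; the sources used here do not give its version, background step or normalization. Probes were named through GEO's platform annotation. A probe was kept if it exceeded the array median on at least 2 arrays, and the brightest probe stood for a gene, which left 14737 genes. A mean per group was fitted with limma 3.58.1 (R 4.3.3, 9 residual degrees of freedom), and p-values, two-sided, were adjusted by Benjamini-Hochberg over all genes within each of 17 comparisons, with a threshold of 0.05. The script was tested on simulated data.

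The members and all lists were chosen with earlier results of these data known. Named were the 8 members, from each list up to 4 genes with the largest change among those past the test in a comparison, and the 3 genes most correlated with each member. On the lists Hdac1, Ncor1 and Fbl had no probe here. Alternatives changed the filter, the probe, the variance prior, the samples fitted, the replicate block, the scaling (7 measured reference genes) and the arrays left out. The number of arrays limits the precision.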

Additional observations from a re-analysis of the deposited data

Results flagged for a closer look

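Members did not pass the test of a difference between the genotypes' changes after E2 (KO change minus WT change, log2, limma interaction term). That difference passed for 10 genes of the lists, the 9 below and Npm1 at 24 h (0.44). Of all genes 1.09%, 0.400% and 7.27% passed at 3, 6 and 24 h. At 24 h 5 of 24 MYC-induced genes passed, 1 of 9 coactivator, 1 of 7 corepressor and 1 of 5 other network genes. Of 8 MYC-repressed genes 1 was higher and 1 lower, and 0 of 9 turnover genes and 0 of 2 MondoA targets passed. Cdkn1b, which encodes the cell-cycle inhibitor p27, fell in WT at 3 h (-0.52) and was 0.12 above 0 h in KO, which did not pass, and the difference was 0.64 at 3 h, 0.56 at 6 h and 0.48 at 24 h. Mycl rose more in KO at 3 h, with a difference of 0.91, and stood higher relative to 0 h at 24 h, with a difference of 0.76. Cdkn1b, Mycl and Cdk4 started lower in KO at 0 h (-0.34, -0.66 and -0.54), and these comparisons share the 0 h arrays. At 24 h the MYC-induced genes Cdk4, Hspe1, Pa2g4 and Cad had differences of 0.99, 0.83, 0.79 and 0.63, the coactivator gene Ruvbl2 0.68 and the deacetylase gene Hdac2 0.39, while Cdkn2b, the inhibitor p15, had -0.71. Cycling-cell markers also rose more in KO at 24 h, 4 of 10 passing the same test with a median difference of 0.75, and their part was not tested. For Mycl, which lost 3 of 17 fits at 3 h and 4 at 24 h, both differences lost their call without the first WT 0 h array (0.87 and 0.72, adjusted p = 0.0643 and 0.0626) or the second KO 0 h array (0.87 and 0.72, adjusted p = 0.0928 and 0.0688). Of the 17 fits that each left out an array, 11 lost the call for Cad, 8 each for Hdac2 and Hspe1, 6 for Pa2g4, 3 for Ruvbl2 and 4 for Cdkn1b at 6 h, and 0 for Cdk4, Cdkn2b and Cdkn1b at 3 and 24 h. With the first WT 0 h array left out, differences at 24 h were 0.45 for Ruvbl2, 0.48 for Hspe1 and 0.39 for Cad, and the 0 h value of Cdk4 was -0.33 (adjusted p = 0.0745).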

How the results depend on the processing

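The 14737 genes tested, the 17 arrays and the probes chosen set these limits; depth does not apply to arrays, and the dim probes of Max, Mxd3, Mnt and Myc lie near background. Every value that left out the filter on dim probes kept its direction and call. Leaving out 1 array at a time moved the count of members higher in WT to 1 to 2 at 3 h, 0 to 1 at 6 h and 0 to 1 at 24 h, the count lower in WT at 24 h to 1 to 3, and the counts higher in KO to 0 to 1 at 3 h and 0 to 1 at 24 h. The count higher in KO than WT at 3 h ran from 0 to 2. The members whose change differed between genotypes numbered 0 to 1 as higher at 3 h, 0 to 1 as higher and 0 to 1 as lower at 24 h, and 0 to 1 jointly. From 3 to 6 h, 0 to 1 were lower in WT and 1 to 2 in KO, and from 6 to 24 h 1 to 3 were higher in KO.

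With only genes averaging above the 75th percentile, Mxd4 alone of the members was left, so the counts became 0 higher and 1 lower at 3 and 24 h and 1 lower at 6 h in both genotypes, 1 higher in KO than WT at 3 h, 0 lower in WT from 3 to 6 h and 1 higher from 6 to 24 h in each genotype. An intensity trend in the variance prior gave 2 higher at 3 h and 1 at 6 h in WT and 2 lower in KO from 3 to 6 h. The mean of a gene's probes gave 1 higher at 6 h in WT, 1 higher in KO than WT at 3 h, 2 lower in KO from 3 to 6 h, and Mxd4 at 0.0194 in KO at 24 h. Fitting only the groups compared gave 0 higher in WT at 24 h, 0 higher in KO than WT at 3 h, 2 lower in WT and 0 in KO from 3 to 6 h, and 1 higher in KO from 6 to 24 h. The second brightest probe turned Mxd1 to 0.0033 in WT and 0.0881 in KO at 3 h, Myc to -0.0366 and -0.0519 at 3 h and -0.0096 and -0.0485 at 24 h in WT and KO, and Mxd4 to 0.0784 and 0.37 at 24 h. Its counts were 0 higher in WT at 3 and 24 h and in KO at 3 h, 1 lower in WT at 24 h and in KO at 3 and 24 h, 1 higher in KO than WT at 3 h and 2 lower in WT from 3 to 6 h. Without the first WT 0 h and the second KO 3 h array, a setting chosen after seeing the data, 0 members were higher in WT at 24 h and 0 in KO against WT at 3 h.

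Replicate numbers are shared between groups. For 56 pairs of groups' same-numbered arrays the deviations from the group mean correlated at -0.19 to 0.31, 11 of them over 0.1. For 70 pairs with other numbers they correlated at -0.31 to 0.23, also with 11 over 0.1. In a group of 2 arrays the deviations are exact opposites, so these values cannot settle whether the numbers pair the arrays. With the replicate number as a block, 1 member was higher in WT at 6 h, 0 were higher in KO than WT at 3 h, where Mxd4 and Mnt differed by 0.47 and 0.23 (limma adjusted p = 0.122 and 0.125), and 2 were lower in KO from 3 to 6 h. With the title letter as a replicate block, 0 were higher in KO at 3 h and 0 in KO against WT at 3 h, and 2 rather than 3 were lower in KO at 24 h.

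The 7 reference genes were not stable: 5 passed as higher than 0 h at 24 h and 4 at 6 h in each genotype. At 3 h 3 passed as higher in WT and 2 in KO, with 1 lower in each. So a change of direction on this scale may come from the reference genes. Scaling each array to the median level of these 7 genes moved the median of all genes by up to 1.19, while the median reference gene rose by 0.44 in WT and 0.65 in KO at 24 h. It gave 2 higher and 1 lower in WT and 0 higher and 1 lower in KO at 3 h, 0 higher and 7 lower in each genotype at 24 h, 1 higher in KO than WT at 3 h, 7 lower in each genotype from 3 to 6 h, 1 higher and 5 lower in WT and 1 higher and 6 lower in KO from 6 to 24 h. Mxd1 at 3 h in WT turned to 0.13. At 24 h in WT Max turned to -0.96, Mnt to -0.90 and Myc to -0.76, and in KO Mxd3 to -1.05 and Myc to -0.98. From 3 to 6 h Mnt in WT turned to -0.49. From 6 to 24 h Mnt, Mxi1 and Myc turned to -0.70, -0.33 and -0.75 in WT, and Mxd3, Mxi1 and Myc to -0.70, -0.80 and -0.74 in KO. Of the lists, at 24 h Mlx turned to -0.66 in WT and -0.82 in KO, Actl6a to -0.40 and -0.0805, Stub1 to -0.58 and -0.62, Arrdc4 to -0.39 and -0.68, and in WT Ruvbl2 to -0.36 and Rbbp7 to -0.18. Apart from the scaling, the cause of these moves was not tested.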
